A study of Homo sapiens with 6 samples.

Results

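Genes that mark or maintain stem and progenitor cells were followed by RNA-seq in CWR-R1 cells with and without SOX2. The set was chosen by name and holds 7 genes: NES, SALL2, KLF4, BMI1, EPCAM, CD44 and PROM1. Of these, 6 could be matched by Ensembl identifier among the 16949 genes of the deposited table, and all 6 passed the filter of a minimum average of 1 CPM (reads of a gene scaled to a common library total) that left 15927 genes for testing. PROM1 was not analysed here. CWR-R1 is an established, castration-resistant human prostate cancer cell line derived from a xenograft. The 3 Control libraries came from untreated cells, labelled SOX2 positive, and the 3 SOX2-KO libraries from the knockout derivative of the same line, labelled SOX2 negative. How the knockout was made, and whether it is 1 clone, is not given in the sources used here. Nothing says that replicates were separate cultures, so the p-values speak for the scatter of these 6 libraries alone, whose origin may be technical.

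SOX2 is a transcription factor that helps to hold embryonic and neural stem cells in their undifferentiated state, and KLF4 acts with it in reprogramming differentiated cells to pluripotency. NES encodes nestin, an intermediate filament protein of dividing neural progenitors that is widely used as their marker, and the neural enhancer of this gene is a classical target of SOX2. BMI1 is a subunit of Polycomb repressive complex 1 (PRC1), which silences the CDKN2A locus and so keeps adult stem cells dividing. EPCAM and CD44 encode surface proteins, and combinations of such proteins, prominin among them, are used to sort tumour-initiating cells, in prostate cancer as well. SALL2 encodes a zinc finger factor of the Spalt-like family, whose relative SALL4 belongs to the pluripotency network.

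The labels were checked first on SOX2 itself, which measured 55.7, 54.3 and 55.5 CPM in Control replicates 1, 2 and 3 and 4.70, 4.56 and 3.83 CPM in the SOX2-KO replicates (limma adjusted p = 1.65e-08, log2 fold change -3.39 with a standard error of 0.08). The libraries held an estimated 20717791 to 25739760 reads on the listed genes. Luminal prostate markers were present (KRT8 at 263 ± 13.1 CPM in Control, SD, n = 3). Of 9 tested, 6 were called higher and 1 lower, beside 25.0% and 32.9% of all tested genes (calls are defined below). Their summed level was 2114 to 2152 CPM in Control and 2753 to 2964 CPM in SOX2-KO. Basal markers summed to 122 to 129 CPM in Control and 137 to 149.8 CPM in SOX2-KO, nearly all of it from DST, and KRT5, KRT14, KRT15, TP63 and COL17A1 were not analysed here. Neuroendocrine markers, of which SYP and SCG2 were measured, summed to 17.7 to 18.9 CPM in Control and 7.53 to 9.45 CPM in SOX2-KO. Fibroblast and smooth muscle markers summed to 11.4 to 12.4 CPM in Control and 8.62 to 8.67 CPM in SOX2-KO, where COL1A1 and LUM fell while ACTA2 rose (2.98 to 4.76 CPM, limma adjusted p = 0.00902). Among endothelial markers VWF was measured, at 3.55 ± 0.562 CPM in Control and 20.5 ± 0.629 CPM in SOX2-KO (SD, n = 3). The part of these shifts in the results below was not tested.

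Of the 6 genes measured, 1 rose (SALL2), 4 fell (NES, KLF4, BMI1 and EPCAM) and 1 (CD44) was not called. Calls are limma adjusted p-values under 0.05 over all genes tested. This knockout comparison called 57.8% of all tested genes, 25.0% higher and 32.9% lower, so calls for 5 of 6 genes are not set apart from that background. The median log2 fold change was -0.30 over the 6 genes and -0.06 over all tested genes. Values of the groups did not overlap for any of the 6, against 64.5% of all tested genes without overlap. Log2 fold changes compare SOX2-KO with Control after adding 1 to each CPM value, and so come out too small for genes at low levels. In RNA from whole cultures, fewer cells with a transcript and less of it per cell cannot be told apart.

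The stretches before the start sites of NES and KLF4 are shown because these genes lost nearly the same share of their transcript, and the shorter windows because they hold letters known to be bound by SOX proteins or by MYC, whose transcript is described further on. All are RefSeq sequences on GRCh38.p14, written 5′ to 3′ on the strand of the gene. In the first pair, capitals mark the GC box (GGGCGG, either strand) and the E-box (CACGTG, which reads the same on both strands). The NES stretch is chr1:156677408-156677657, minus strand, and the KLF4 stretch is chr9:107489770-107490019, minus strand, each ending at the base before the RefSeq start and holding no GENCODE 29 exon, although the KLF4 stretch lies within the span of that gene.
NES: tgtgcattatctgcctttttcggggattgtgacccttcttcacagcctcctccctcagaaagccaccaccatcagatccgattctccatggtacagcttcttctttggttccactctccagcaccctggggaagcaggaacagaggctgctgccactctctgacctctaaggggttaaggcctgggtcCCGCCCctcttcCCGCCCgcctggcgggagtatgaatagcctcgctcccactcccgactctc
KLF4: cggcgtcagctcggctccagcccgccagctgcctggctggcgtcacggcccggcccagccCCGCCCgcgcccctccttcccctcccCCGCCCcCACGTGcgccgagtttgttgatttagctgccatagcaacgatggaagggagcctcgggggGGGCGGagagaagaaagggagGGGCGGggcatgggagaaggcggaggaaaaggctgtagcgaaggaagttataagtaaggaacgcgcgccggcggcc
In windows of 30 bases, capitals mark the core letters of SOX binding (CATTGT, or ACAATG on the other strand) in NES, chr1:156677358-156677387, minus strand, and in SALL2, chr14:21537193-21537222, minus strand, and the E-box in BMI1, chr10:22321017-22321046, plus strand.
NES: ccccgccccgccccgtCATTGTccccgtcg
SALL2: atttttgcttttACAATGggagctgcagaa
BMI1: gaatgaggggagCACGTGacccgctggggg

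The SOX letters start 36 bases after the annotated start of NES and 89 bases before that of SALL2, in each case within an exon of GENCODE 29. Windows from 250 bases before to 50 after a start were held for NES, SALL2, KLF4, BMI1, CD44 and PROM1, and the windows of KLF4, BMI1, CD44 and PROM1 did not contain these letters. Among 35116 such windows of all genes, 10.8% contained them, 7.26% the E-box and 45.0% the GC box. The genes with the SOX letters moved in opposite directions, NES down and SALL2 up. A match of letters is a description and not a measured binding site. The motifs printed were picked with the sequences in view, out of 7 searched on both strands (the others were the OCT octamer ATGCAAAT, the KLF letters GGGTGTGG, TATAAA and CCAAT). The bases before the start were 58.0% G or C in NES, which is also the median of all windows, 69.2% in KLF4 and 46.0% in SALL2, and 76.8% in the first of 2 starts listed for BMI1.

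**Figure D1:**
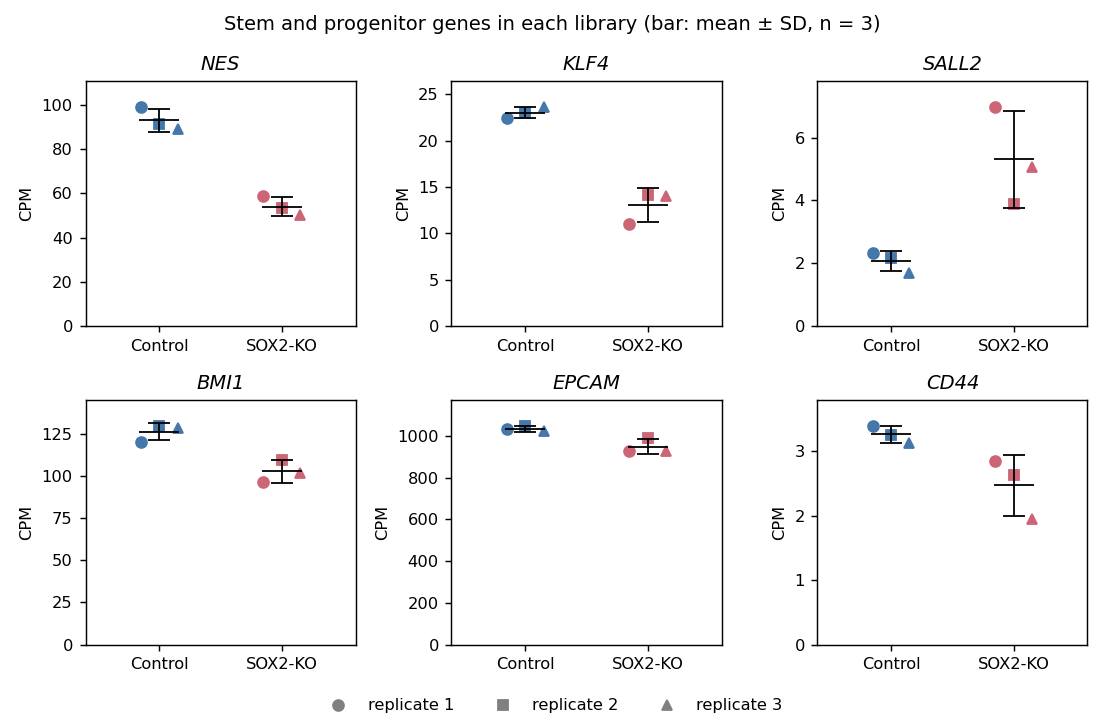
CPM (y axis, from 0) of the 6 measured genes in each library, with a marker shape per replicate number and the mean ± SD of 3 libraries as a bar. The groups do not overlap in any panel. The relative gap is widest in NES, KLF4 and SALL2, narrower in BMI1 and CD44, and narrowest in EPCAM, whose mean is 8.33% lower.

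Nestin transcript was lower in every SOX2-KO library. NES (ENSG00000132688, chromosome 1, positions 156668763 to 156677397 of GRCh38, minus strand) measured 98.9, 91.2 and 89.0 CPM in Control replicates 1, 2 and 3 and 58.6, 53.2 and 49.96 CPM in SOX2-KO replicates 1, 2 and 3. The highest SOX2-KO value lay 30.4 CPM under the lowest Control value. The mean fell 42.0%, from 93.0 ± 5.20 to 53.9 ± 4.36 CPM (SD, n = 3 per group; log2 fold change -0.78 ± 0.07, standard error, 95% interval -0.93 to -0.63; limma adjusted p = 1.44e-05). These levels rest on an estimated 1175 to 2310 reads per library, for which counting alone would give an SD of 2.18% in Control and 2.83% in SOX2-KO, against 5.59% and 8.08% measured. Of all tested genes, 10.5% had a larger absolute log2 fold change. Nestin transcript therefore stayed well above the floor of 3 reads, 0.117 to 0.145 CPM per library, in the knockout, at 58.0% of the Control level.

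KLF4, the zinc finger transcription factor of the pluripotency quartet, lost a similar share. It measured 22.4, 22.9 and 23.6 CPM in the Control replicates and 10.98, 14.2 and 14.0 CPM in the SOX2-KO replicates. SOX2-KO replicate 1 was the lowest library, and the Control libraries lay close together (SD 2.56% of the mean, against 13.8% in SOX2-KO). The mean fell 43.2%, from 23.0 ± 0.588 to 13.05 ± 1.795 CPM (SD, n = 3; log2 fold change -0.78 ± 0.10, standard error, 95% interval -1.003 to -0.56; limma adjusted p = 1.49e-04). KLF4 (ENSG00000136826) lies on chromosome 9, positions 107484852 to 107490482 of GRCh38, minus strand. Its neighbours moved the same way, as described below, and with their median subtracted the log2 fold change was -0.47 (adjusted p = 0.00217).

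SALL2 was the gene that rose. Its Control values were 2.33, 2.17 and 1.71 CPM, and its SOX2-KO values were 6.97, 3.89 and 5.08 CPM. All SOX2-KO libraries were above all Control libraries, and SOX2-KO replicate 1, the lowest for KLF4, was the highest for SALL2. The mean rose 2.57-fold, from 2.07 ± 0.327 to 5.32 ± 1.55 CPM (SD, n = 3; log2 fold change 1.02 ± 0.18, standard error, 95% interval 0.60 to 1.43; limma adjusted p = 0.00128). An estimated 35 to 55 reads per Control library and 86 to 153 per SOX2-KO library lie behind these values. The SD was 29.2% of the mean in SOX2-KO, where counting alone would give 9.01%. SALL2 (ENSG00000165821) lies on chromosome 14, positions 21521081 to 21537216 of GRCh38, minus strand, and shares 8.8% of its exonic bases with the antisense gene AL161747.2. Whether reads were assigned by strand is not given in the sources used here.

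BMI1 fell by a smaller share. It measured 120.5, 129.8 and 128 CPM in the Control replicates and 96.6, 109.8 and 102 CPM in the SOX2-KO replicates. SOX2-KO replicate 1 was again the lowest library, and the groups were separated by 10.7 CPM. The mean fell 18.6%, from 126 ± 5.02 to 103 ± 6.63 CPM (SD, n = 3; log2 fold change -0.30 ± 0.05, standard error, 95% interval -0.42 to -0.17; limma adjusted p = 0.00145). With the median of its neighbours subtracted the log2 fold change was -0.16 (adjusted p = 0.0288). BMI1 (ENSG00000168283) lies on chromosome 10, positions 22321211 to 22331484 of GRCh38, plus strand. It shares 23.3% of its exonic bases with the readthrough gene COMMD3-BMI1, between which the authors' counting could split reads. That gene was listed at 5.99, 7.08 and 3.83 CPM in Control and 6.23, 6.22 and 2.79 CPM in SOX2-KO (limma adjusted p = 0.656), a small amount beside the level of BMI1.

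EPCAM had the highest CPM of the set and the smallest relative difference. This gene of an epithelial adhesion protein measured 1032, 1048 and 1022 CPM in the Control replicates and 926, 989 and 928 CPM in the SOX2-KO replicates. SOX2-KO replicate 2 came within 33.04 CPM of the lowest Control library. The mean fell 8.33%, from 1034 ± 13.2 to 948 ± 35.6 CPM (SD, n = 3; log2 fold change -0.13 ± 0.04, standard error, 95% interval -0.23 to -0.03; limma adjusted p = 0.0346). The call ended with median-ratio scaling (-0.07, adjusted p = 0.296; with quantile normalisation -0.25, called) and also when Control replicate 1, 2 or 3 was left out (adjusted p of 0.0713, 0.122 and 0.0734) or SOX2-KO replicate 1 or 3 (0.073 and 0.0781), and the direction turned when the neighbourhood was subtracted (0.20, adjusted p = 0.012). Adjusted p ran from 7.38e-04 to 1 over the alternatives for this gene. EPCAM (ENSG00000119888) lies on chromosome 2, positions 47345158 to 47387601 of GRCh38, plus strand.

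CD44, the gene of the hyaluronan receptor, was low in both groups and was not called. It measured 3.40, 3.26 and 3.13 CPM in the Control replicates and 2.86, 2.63 and 1.95 CPM in the SOX2-KO replicates. The groups were separated by 0.275 CPM, and SOX2-KO replicate 3 was the lowest library. The means were 3.26 ± 0.133 and 2.48 ± 0.474 CPM (SD, n = 3; log2 fold change -0.30 ± 0.14, standard error, 95% interval -0.61 to 0.01; limma adjusted p = 0.0854; unadjusted p = 0.0537). The estimate has nearly the size of that of BMI1 but rests on 50 to 83 estimated reads per library, and counting alone would give an SD of 11.6% in Control and 13.3% in SOX2-KO. With the neighbourhood subtracted CD44 was called lower (-0.43, adjusted p = 0.0223), and without SOX2-KO replicate 3 the log2 fold change was -0.19 (0.246). Adjusted p ran from 0.0223 to 1 over the alternatives. CD44 (ENSG00000026508) lies on chromosome 11, positions 35138870 to 35232402 of GRCh38, plus strand, and its splice forms, which differ between epithelial and mesenchymal cells, cannot be separated in values per gene.

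**Figure D2:**
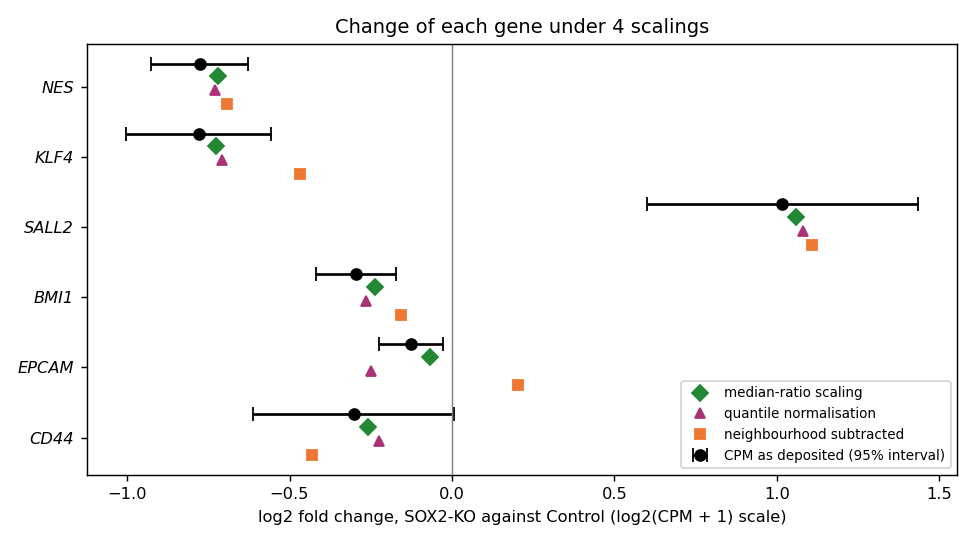
Log2 fold change of SOX2-KO against Control on the log2(CPM + 1) scale (x axis) for each of the 6 genes, with the 95% interval for CPM as deposited and the estimate under 3 other scalings. NES, KLF4 and BMI1 lie below 0 and SALL2 above 0 under all 4 scalings, while EPCAM moves from -0.13 to 0.20 when the median of its neighbours is subtracted.

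The exact two-sided permutation test on mean CPM gave p = 0.1 for each of the 6 genes, the smallest value that 3 against 3 libraries allow. Set against the exonic length in GENCODE 29, Control levels ran from 410.5 CPM per kb for EPCAM through 29.5 for BMI1, 16.7 for NES and 6.28 for KLF4 to 0.385 for SALL2 and 0.326 for CD44. The last pair overlapped in Control, with 0.317 to 0.434 CPM per kb for SALL2 and 0.313 to 0.340 for CD44. In SOX2-KO they did not overlap, with 0.724 to 1.295 CPM per kb for SALL2 and 0.195 to 0.286 for CD44, while the order of the other 4 genes was the same. The length counts every annotated exon, so genes with many alternative exons, such as CD44, are placed too low by an amount that was not measured.

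To see whether a gene moved apart from its surroundings, each was set beside the 10 nearest tested genes on either side. The counts of calls stand beside 32.9% lower and 25.0% higher among all tested genes. Around KLF4, 14 of 20 neighbours fell and 1 rose (median log2 fold change -0.36), among them RAD23B, the nearest on one side (381 to 266 CPM, adjusted p = 8.57e-06). Around EPCAM, 11 of 20 fell and 1 rose (median -0.32), and CALM2, the nearest on one side, was not called (142 to 134 CPM, adjusted p = 0.17). EPCAM was thus less reduced than its surroundings, 16th from the lowest among the 21 genes, and KLF4 more so, 2nd from the lowest.

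Calls around the other genes were more mixed, beside the same 32.9% lower and 25.0% higher among all tested genes. Around NES 8 of 20 neighbours fell and 5 rose (median -0.03), and NES was 2nd from the lowest after ENSG00000272405, a gene without a symbol here (2.19 to 0.542 CPM), with the retinoic acid binding protein gene CRABP2 (19.0 to 13.4 CPM, adjusted p = 8.95e-04) on the other side. Around SALL2 9 fell and 6 rose (median -0.10), none of them as high as SALL2. Its nearest neighbours were METTL3 (42.4 to 48.6 CPM, adjusted p = 0.136), the gene of the RNA methyltransferase, and DAD1 (52.3 to 46.2 CPM, adjusted p = 0.048). Around BMI1 5 fell and 3 rose (median -0.15), with PIP4K2A beyond it not called (45.3 to 41.6 CPM, adjusted p = 0.103). Called or not, 15 of the 20 neighbours of BMI1 had a log2 fold change below 0. COMMD3-BMI1, which shares exonic bases with BMI1, is 1 of these neighbours, so they are not all separate from BMI1. Around CD44 7 fell and 10 rose (median 0.15): PDHX rose (95.4 to 109 CPM, adjusted p = 0.00604) and the glutamate transporter gene SLC1A2 fell (36.0 to 18.1 CPM, adjusted p = 5.43e-06).

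**Figure D3:**
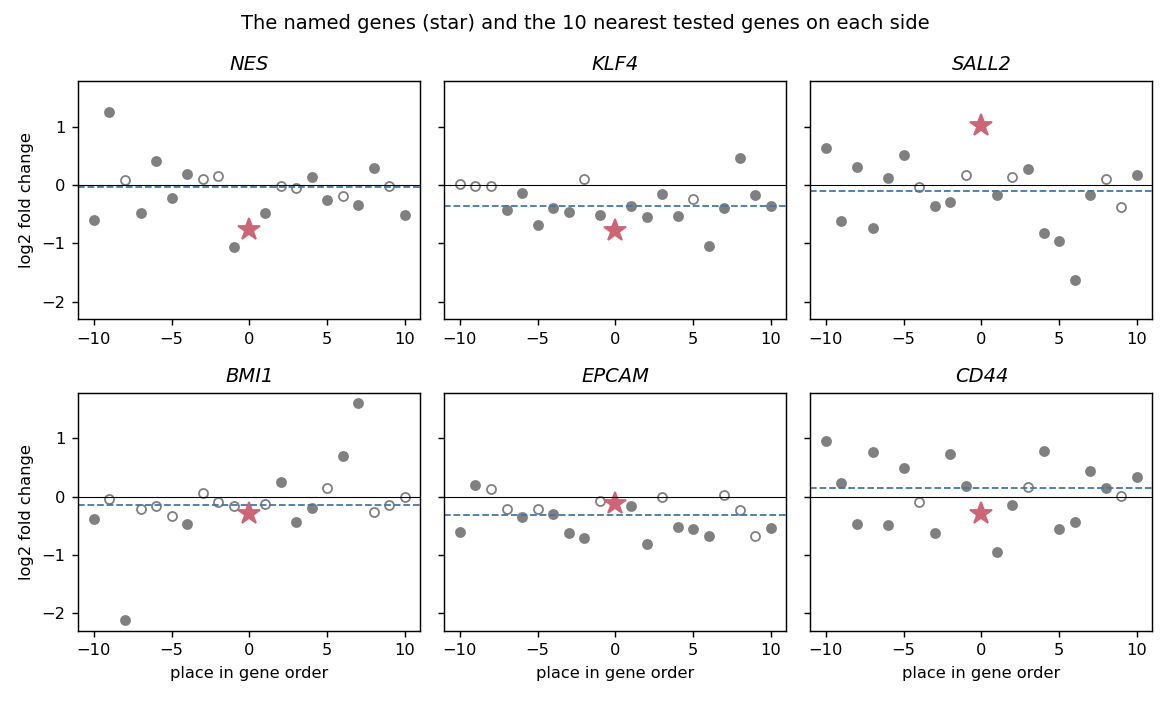
Log2 fold change (y axis) of each of the 6 genes (star) and of the 10 nearest tested genes on each side by place in gene order (x axis). Filled points are called at an adjusted p under 0.05, and the dashed line is the median of the 20 neighbours, which lies at -0.36 for KLF4, -0.32 for EPCAM and 0.15 for CD44.

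Partner and pathway genes were taken from 11 lists of 202 different genes, of which 139 were tested. Of these, 33 rose and 57 fell, which makes 64.7% called against 57.8% of all tested genes, with a median log2 fold change of -0.11 against -0.06. The values that follow are mean CPM ± SD with n = 3 in Control and then in SOX2-KO, and adjusted p-values are from limma over all tested genes.

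Among other factors of pluripotent cells, 2 of 10 tested genes rose and 4 fell (median log2 -0.11), beside 25.0% and 32.9% of all tested genes. MYC, the proto-oncogene that completes the reprogramming quartet, rose from 328 ± 17.7 to 387 ± 3.83 CPM (adjusted p = 0.00182), and TBX3 from 299.7 ± 11.7 to 339.6 ± 14.5 CPM (log2 0.18, and 0.52 relative to its neighbours). TFCP2L1, a factor of naive pluripotency in mouse embryonic stem cells, fell from 17.4 ± 1.299 to 3.07 ± 0.238 CPM (log2 -2.18, adjusted p = 5.53e-07). The defining genes were barely expressed: POU5F1 was at 1.69 ± 0.287 and 1.47 ± 0.246 CPM, SALL4 at 1.44 ± 0.247 and 1.27 ± 0.0911 CPM, and NANOG, too low to be tested, at 1.123 ± 0.194 and 0.637 ± 0.205 CPM. These 3 were named after their values were seen, and neither POU5F1 nor SALL4 was called. KLF2 was not called either (1.85 ± 0.562 and 1.99 ± 0.345 CPM).

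The Kruppel-like factors, zinc finger relatives of KLF4, moved both ways. Of 13 tested, 5 rose and 2 fell (median log2 0.08), beside 25.0% and 32.9% of all tested genes. KLF9, a gene induced by glucocorticoid receptor signalling, rose from 171 ± 7.94 to 311 ± 7.14 CPM (adjusted p = 1.01e-06) and KLF7 from 48.6 ± 2.07 to 73.3 ± 4.47 CPM. KLF5, which is expressed in epithelial progenitors, fell with KLF4, from 74.9 ± 4.30 to 40.6 ± 1.58 CPM (log2 -0.87, adjusted p = 3.15e-06), and KLF16 from 62.2 ± 5.73 to 39.3 ± 1.64 CPM (log2 -0.64, and -0.26 relative to its neighbours). KLF3, the most abundant gene not called, was at 197 ± 5.61 and 195 ± 6.89 CPM.

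Of 23 tested genes of other subunits of PRC1, the complex of BMI1, 4 rose and 11 fell (median log2 -0.13), beside 25.0% and 32.9% of all tested genes. SCMH1, a gene of a Polycomb protein, fell from 88.6 ± 1.06 to 58.5 ± 4.60 CPM (adjusted p = 3.33e-05). CBX7, a gene of a chromobox subunit that binds the Polycomb histone mark, rose from 39.9 ± 1.27 to 50.6 ± 1.495 CPM (adjusted p = 3.53e-04), and PCGF3, a relative of BMI1 in a variant complex, from 73.0 ± 0.977 to 90.1 ± 3.59 CPM. RYBP was not called (92.6 ± 3.38 and 97.6 ± 6.52 CPM) except without SOX2-KO replicate 1 (0.13, adjusted p = 0.0484). Values of PCGF2 and RING1 were identical to those of other identifiers in all libraries, so these rows are not separate measurements.

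All 7 cyclin-dependent kinase inhibitor genes, which include the CDKN2A locus repressed by PRC1, were called, 2 higher and 5 lower (median log2 -0.41). Of all tested genes 57.8% were called, 25.0% higher and 32.9% lower. Leaving out 1 library left 6 to 7 of these genes called. CDKN1A, the p21 gene, rose from 48.3 ± 1.55 to 85.1 ± 20.3 CPM (adjusted p = 0.00161) and CDKN1C, the p57 gene, from 1.34 ± 0.281 to 3.57 ± 1.008 CPM. CDKN2D fell from 36.3 ± 1.39 to 17.4 ± 1.62 CPM (adjusted p = 7.54e-06) and CDKN1B, the p27 gene, from 113 ± 2.2998 to 79.2 ± 1.898 CPM. CDKN2A and CDKN2B, named after their values were seen, fell together with BMI1, from 43.7 ± 4.27 to 32.6 ± 3.20 CPM (adjusted p = 0.00325) and from 6.18 ± 0.481 to 2.76 ± 0.212 CPM (adjusted p = 1.09e-04).

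Genes around EpCAM, its binding partners, its cleavage enzymes and epithelial regulators, divided nearly evenly. Of 21 tested, 6 rose and 7 fell (median log2 -0.01), beside 25.0% and 32.9% of all tested genes. The tetraspanin genes moved apart: TSPAN8 rose from 43.9 ± 0.983 to 94.8 ± 4.096 CPM (log2 1.09, adjusted p = 4.00e-07) and CD9 fell from 137 ± 0.184 to 64.4 ± 4.43 CPM (log2 -1.08, adjusted p = 7.08e-07). GRHL2, an epithelial transcription factor, rose from 277 ± 3.09 to 339 ± 9.89 CPM, but was no longer called once the median of its neighbours was taken off (0.10, adjusted p = 0.118). The protease inhibitor gene SPINT1 fell from 150.2 ± 1.71 to 118 ± 3.12 CPM (log2 -0.35, and -0.17 relative to its neighbours), and CTNNB1, the beta-catenin gene, was not called (463 ± 9.897 and 457 ± 11.98 CPM).

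In the hyaluronan system that CD44 belongs to, 3 of 14 tested genes rose and 4 fell (median log2 -0.05). The shares of all tested genes were 25.0% higher and 32.9% lower. CEMIP and CEMIP2 are genes of proteins that take part in hyaluronan breakdown. CEMIP fell from 10.6 ± 0.765 to 2.57 ± 0.182 CPM (log2 -1.69, adjusted p = 2.62e-06) and CEMIP2 from 40.7 ± 2.35 to 13.9 ± 1.251 CPM (log2 -1.49, adjusted p = 1.21e-06). MMP14, a membrane protease gene named after its values were seen, fell from 2.68 ± 0.315 to 0.197 ± 0.0946 CPM (log2 -1.62, adjusted p = 1.94e-05). Its SOX2-KO values, 0.228, 0.0906 and 0.272 CPM, lay near the floor of 3 reads. That of SOX2-KO replicate 2 was under its floor of 0.136 CPM. HYAL2, a hyaluronidase gene, rose from 16.4 ± 1.66 to 21.7 ± 0.233 CPM, but lost its call against the median of its neighbours (0.14, adjusted p = 0.207). SLC7A11, the cystine transporter gene whose protein CD44 variants stabilise, rose from 456 ± 19.4 to 528 ± 33.6 CPM. ESRP1, which directs epithelial splicing of CD44, was not called (285 ± 2.93 and 295 ± 28.97 CPM) except without SOX2-KO replicate 1 (0.13, adjusted p = 0.0223).

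Of 14 tested neural stem and progenitor genes, 2 rose and 6 fell (median log2 -0.13), beside 25.0% and 32.9% of all tested genes. HES6, a basic helix-loop-helix gene of neurogenesis, fell from 45.7 ± 3.14 to 22.5 ± 1.35 CPM (log2 -0.99, adjusted p = 5.02e-06). POU3F2, a POU factor that partners SOX2 on neural enhancers, fell from 16.3 ± 0.567 to 10.4 ± 0.409 CPM (adjusted p = 1.41e-04). HES1, a Notch target, rose from 15.2 ± 0.942 to 20.4 ± 0.941 CPM (log2 0.40, adjusted p = 0.00152; 0.93 relative to its neighbours). PROM2, the prominin relative of PROM1, rose from 125 ± 7.502 to 141 ± 4.51 CPM (adjusted p = 0.0151), a call that ended without Control replicate 3 (0.0575). MSI1, an RNA-binding protein gene of neural progenitors, was not called (345 ± 19.4 and 336 ± 19.5 CPM) and was called higher with the neighbourhood subtracted (0.29, adjusted p = 7.01e-04).

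The list around nestin joined cytoplasmic intermediate filament genes with the nuclear lamins and with CDK5, the kinase that nestin binds, and its activator CDK5R1. Of 9 tested genes, 2 rose and 6 fell (median log2 -0.30), beside 25.0% and 32.9% of all tested genes. Among the 4 tested cytoplasmic filament genes, the vimentin gene VIM, PRPH and SYNM fell, VIM from 3.59 ± 0.145 to 1.62 ± 0.173 CPM (adjusted p = 3.81e-04), a gene named after its values were seen. The peripherin gene PRPH fell from 10.1 ± 0.556 to 3.43 ± 0.287 CPM (log2 -1.33, adjusted p = 8.36e-06) and the synemin gene SYNM from 39.2 ± 1.42 to 17.8 ± 1.31 CPM (log2 -1.10, adjusted p = 2.65e-06; -0.67 relative to its neighbours). CDK5 itself rose from 19.4 ± 0.533 to 34.1 ± 2.16 CPM (adjusted p = 1.24e-05), as did LMNB1, a lamin gene, from 254 ± 5.93 to 307 ± 16.3 CPM (log2 0.27, and 0.48 relative to its neighbours). The activator gene CDK5R1 fell, from 12.7 ± 1.14 to 8.46 ± 0.407 CPM (adjusted p = 0.00107). The lamin genes LMNA (76.8 ± 4.92 to 61.9 ± 1.61 CPM, adjusted p = 0.00115) and LMNB2 (408 ± 24.6 to 342 ± 11.2 CPM, adjusted p = 0.00232) fell too. CDK5R1, LMNA and LMNB2 were named after their values were seen. NEFL was not called (1.44 ± 0.5197 and 1.69 ± 0.432 CPM).

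Other surface and enzyme markers used to sort progenitors also moved both ways. Of 15 tested, 3 rose and 5 fell (median log2 -0.05), beside 25.0% and 32.9% of all tested genes. ALDH1A1, the aldehyde dehydrogenase gene behind a common stem cell assay, fell from 194 ± 2.50 to 24.3 ± 0.471 CPM (log2 -2.95, adjusted p = 7.71e-10). The integrin gene ITGA2 rose from 40.8 ± 1.93 to 89.2 ± 6.82 CPM (log2 1.11, adjusted p = 1.84e-06) and ALCAM, an adhesion gene, from 570 ± 23.7 to 962 ± 24.4 CPM. LRIG1 fell from 23.5 ± 0.434 to 14.2 ± 0.889 CPM, with values identical to those of another identifier. LGR5 was not called (70.6 ± 0.715 and 66.4 ± 1.66 CPM).

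In the NuRD corepressor, which Spalt-like factors recruit, 3 of 13 tested subunit genes rose and 8 fell (median log2 -0.25). The shares of all tested genes were 25.0% higher and 32.9% lower. CHD4, the remodelling ATPase, fell from 406 ± 6.06 to 261 ± 15.5 CPM (adjusted p = 7.38e-06), and GATAD2A from 192 ± 2.27 to 138 ± 7.16 CPM (adjusted p = 2.60e-05), though not relative to its neighbours (adjusted p = 0.109). HDAC2 rose from 243 ± 4.33 to 286 ± 4.98 CPM and MBD2 from 69.9 ± 1.98 to 81.7 ± 4.80 CPM, and relative to their neighbours neither was called (adjusted p = 0.593 and 0.266). That alternative left 3 NuRD genes called in place of 11. RBBP7 was not called (189 ± 2.52 and 201 ± 4.21 CPM) except with median-ratio scaling (adjusted p = 0.0178) or quantile normalisation (0.0117). Of 2 tested factors of epithelial-mesenchymal transition, TCF4 rose from 27.0 ± 1.83 to 37.2 ± 2.82 CPM. TWIST1 was not called (18.1 ± 1.88 and 15.5 ± 0.245 CPM; adjusted p = 0.0591), and was called with the neighbourhood subtracted (0.00122) or after rescaling without mitochondrial transcripts (0.0481).

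**Figure D4:**
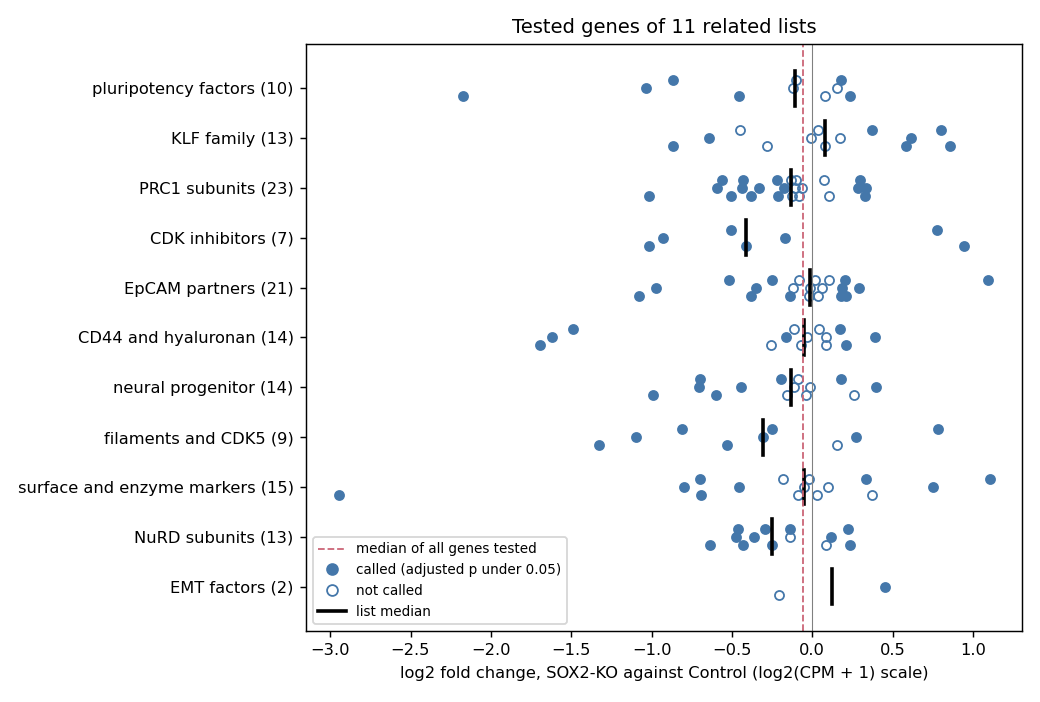
Log2 fold change (x axis) of each tested gene in the 11 lists (y axis, with the number tested), filled where called at an adjusted p under 0.05. Black bars are list medians, which run from -0.41 for the CDK inhibitors to 0.12 for the pair of EMT factors, and the dashed line is the median of all tested genes at -0.06.

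The genes whose profile over the 6 libraries was most like that of each measured gene were named by the highest Pearson correlation among 12857 protein-coding genes. They were EP400 for NES (r = 0.999; EP400 log2 fold change -0.63, and -0.33 relative to its own neighbours), NUDT16L1 for KLF4 (0.999), POLR2L for SALL2 (0.997), USP33 for BMI1 (0.999), ZNF775 for EPCAM (0.997) and AKAP5 for CD44 (0.995). With 2 groups, many genes that separate them in the same direction correlate highly. Counts of genes with r over 0.95 were 1864 for NES and 1711 for KLF4, but 326 for SALL2, 307 for EPCAM and 46 for CD44. AKAP5 itself fell from 5.96 ± 0.193 to 4.56 ± 0.798 CPM with an adjusted p of 0.049, a call that ended under 11 of the alternatives with adjusted p up to 0.136, apart from the test against a minimum fold.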

How the data were processed

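RNA-seq libraries of 3 Control and 3 SOX2-KO samples were analysed at the level of genes. The authors deposited 1 table of CPM values (reads of a gene scaled to a common library total), and only CPM values were used. The submitters' processing notes list kallisto 0.43.1, edgeR 3.22.2, STAR, Trimmomatic 0.38, Picard, CASAVA 1.8, FastQC and SAMtools and the builds hg38 and GRCh38.p12, without roles or order. Values did not resolve into whole reads (25.7 to 28.1% within 0.001 of a whole read, where 0.2% is given by chance), so no count test was run; read numbers are estimates from the best-fitting totals, and counting errors and floors cover counting error only. Gene positions and exons are from GENCODE 29.

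Genes averaging 1 CPM or more across the 6 libraries were fitted on log2(CPM + 1) with limma 3.58.1 in R 4.3.3 (trended variance), and p-values were adjusted by Benjamini-Hochberg over 15927 genes. The fit was tested on simulated data: of 50 genes changed 1.25-fold, 64% were called, and of 50 changed 1.5-fold, 94%. Among the 15631 genes tested there, 13 unchanged ones were called. The simulation gave every gene the same scatter beyond counting and changed far fewer genes than were called in the data. Its rates may therefore not hold for these libraries. Whether genes with as much scatter between libraries as KLF4 or SALL2 would be called as often was not tested. The genes and lists were chosen with earlier results of these data known. From each list up to 2 called genes with the smallest p in each direction and the most abundant gene not called are named, with marker genes, the nearest tested neighbours and the most similar gene. Alternatives changed the pseudocount, filter, scaling, tested fold, replicate block, neighbourhood or libraries used. Some genes that this rule names are not reported here.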

Additional observations from a re-analysis of the deposited data

How the results depend on the processing

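NES, KLF4 and BMI1 stayed lower and SALL2 higher, all called, under every alternative run for them except a test against a minimum fold of 1.5 (limma treat), with log2 ranges of -0.84 to -0.69, -0.84 to -0.47, -0.34 to -0.16 and 0.83 to 1.31. Against that minimum fold 1042 genes were called (genes called higher 393, genes called lower 649) and 0 of the 6: NES -0.78 (adjusted p = 0.112), SALL2 1.02 (0.237), KLF4 -0.78 (0.382), BMI1 -0.30 (1) and EPCAM -0.13 (1), of which 3 had an unadjusted p under 0.05. EPCAM was -0.068 with median-ratio scaling (0.296) and 0.20, called higher, with the neighbourhood subtracted (0.012). Leaving out 1 library gave EPCAM values of -0.157 to -0.110, 4 to 5 of the 6 genes called, and 8132 to 8892 genes called. CD44 was called with the neighbourhood subtracted (-0.43, 0.0223). A filter at 5 CPM left SALL2 and CD44 without a value. The replicate block called 8727 genes and changed no call among the 6. Same-numbered libraries did not visibly deviate together over all tested genes (r = -0.0446, 0.0383 and -0.0135). Counting error enters these deviations, so the values cannot decide whether the numbers pair the libraries. Calls that rose made up 43.2% of all calls, against 50.3% after median-ratio scaling, 50.9% after quantile normalisation and 50.2% relative to neighbours.

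Of 966 values for 57 other named genes, 894 kept direction and call. Genes not called changed sign in 18 values: with median-ratio scaling KLF3 (0.0471), CTNNB1 (0.0407) and MSI1 (0.0191); with quantile normalisation KLF3 (0.0170); with the neighbourhood subtracted KLF3 (0.0583), RYBP (-0.0878), ESRP1 (-0.0151), MSI1 (0.295), NEFL (-0.393) and LGR5 (0.132). Leaving out 1 library gave -0.0624 to 0.224 for KLF2, -0.0394 to 0.00748 for KLF3, -0.0356 to 0.00208 for CTNNB1, -0.0116 to 0.125 for ESRP1, -0.0839 to 0.00640 for MSI1 and -0.0373 to 0.260 for NEFL. The cause was not tested.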
